A study of Mus musculus with 8 samples.

Results

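Flavin-containing monooxygenases were followed through 4 of the 20145 mouse genes named on the array, Fmo1, Fmo2, Fmo4 and Fmo5, which were measured by 7 of its 55681 distinct probes. Fmo1 had 2 probes, Fmo2 and Fmo4 had 1 each, and Fmo5 had 3. A probe was taken as a member when the transcript accession given for it belonged to 1 of these genes. The genes were chosen with their levels in these samples known, so the comparison between groups is given for them as a description, and no p-value is given. RNA came from 3 samples of wildtype ovary and 5 samples of ovarian neoplasia, all from mice of 33 weeks and labelled as cycling. The neoplasia mice were heterozygous for Pgrcre, a cre inserted at the progesterone receptor gene, and for an LsL allele of the receptor, written as mPgrLsL in the sample labels and as PgrBLsL in the design. The wildtype mice are labelled with neither allele. An LsL allele is silent until Cre removes its stop cassette, so expression is limited to cells that express Pgr or descend from such cells. Cycle stage is not stated, nor is the number of animals behind a sample, and the p-values given for other genes measure the spread between these samples, which may be technical.

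Flavin-containing monooxygenases are enzymes of the endoplasmic reticulum that use FAD, NADPH and oxygen to add an oxygen atom to nucleophilic nitrogen or sulfur in drugs, dietary compounds and some metabolites. They are best known from liver, kidney and lung, where they act beside the cytochromes P450. FMO1 also oxidises hypotaurine to taurine. FMO2 is the main form of the lung in most mammals. FMO5 differs from its relatives in favouring Baeyer-Villiger oxidation of ketones, and in mouse its loss changes metabolic ageing. FMO4 is poorly characterised.

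All 8 arrays lay on 1 slide. Neoplasia 1 to 4 were in slide row 1, and neoplasia 5 shared slide row 2 with the wildtype arrays. Array brightness differed, with a 75th percentile of 462 to 515 signal units in wildtype and of 309 to 429 in neoplasia (exact permutation test, two-sided p = 0.0179, adjusted p = 0.0357 over 2 measures). Between 33792 and 34226 probes were well above background on the wildtype arrays and between 29378 and 32962 on the neoplasia arrays (exact permutation p = 0.0357, adjusted p = 0.0357). Levels below are log2 of the signal over the 75th percentile of the same array, so 0 is the 75th percentile. By limma, 29% of 29485 features passed an adjusted p of 0.05. Of these calls 53.0% were higher in the neoplasia, against 67.3% with normexp background correction, 20.2% in the authors' deposited values and 14.3% with scaling on spike-in controls. On the log2 scale the middle feature moved by 0.11, by 0.22 with normexp, by -0.35 in the authors' values and by -0.48 with spike-in scaling, and small differences are to be read against these shifts.

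By means on the log2 scale, Fmo5 was about 10 times as abundant in the neoplasias as in the wildtype ovary, with a wide spread among the neoplasias. Fmo1 was lower in neoplasia 1 to 4 and higher in neoplasia 5 than in wildtype. Fmo2 had nearly equal means in both groups, and Fmo4 was not detected. Of the 7 probes, 6 were well above background on at least 3 arrays and could be fitted. The Fmo1 probes met that minimum mainly through the wildtype arrays. Over all fitted probes, 29.1% passed the threshold, 15.6% higher in neoplasia and 13.5% lower, and 38% had groups that did not overlap. Among the Fmo probes 2 of 6 lay past it, both of Fmo5 and both higher, and the same 2 had groups that did not overlap. This count is a description and supports nothing, since the genes were chosen with this contrast known. In whole tissue, fewer cells of a type and less RNA per cell cannot be told apart.

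**Figure D1:**
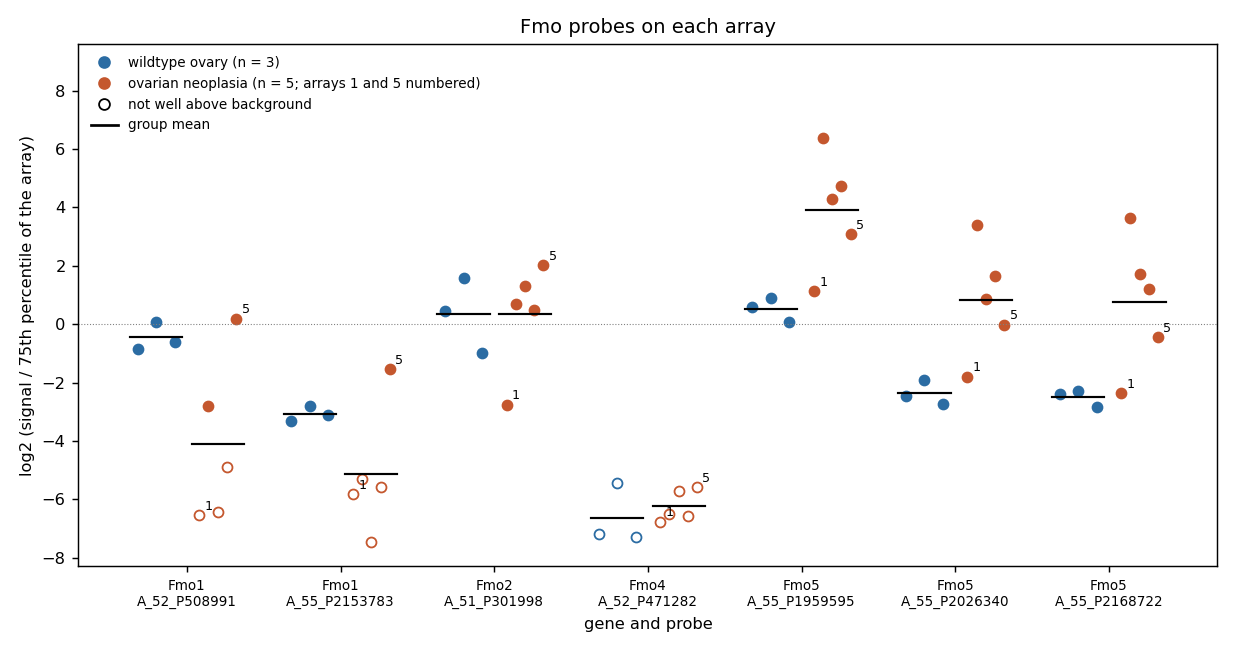
Level of each Fmo probe (horizontal axis) on each array as log2 of signal over the array's 75th percentile (vertical axis), with blue points for wildtype, orange points for neoplasia, open points for signals not well above background and bars for group means. Both Fmo1 probes sit above the wildtype points on neoplasia 5, Fmo2 is lowest on neoplasia 1, all Fmo4 points are open, and the Fmo5 probes are lowest among the neoplasias on neoplasia 1.

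Fmo5 was higher in the neoplasias at each of its 3 probes. Probe A_55_P1959595, the brightest of its 3 probes, gave signals of 766, 951 and 491 on wildtype 1 to 3 and of 676, 35364, 7154, 8949 and 3017 on neoplasia 1 to 5. After scaling these were 0.59, 0.88 and 0.09 in wildtype and 1.13, 6.37, 4.30, 4.73 and 3.07 in neoplasia. Every neoplasia lay above every wildtype sample, but neoplasia 1 by only a small step, and its unscaled signal lay within the wildtype range. The group means were 0.52 ± 0.40 (SD, n = 3) and 3.92 ± 1.96 (SD, n = 5), which differ by 3.40 ± 1.01 (SE), or 10.6-fold. Spread among the neoplasias was 5.24 on the log2 scale from lowest to highest, against 0.80 among the wildtype samples.

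The other probes of Fmo5 repeated this pattern at lower signal. Probe A_55_P2026340 gave 93.5, 136 and 69.5 in wildtype and 88.8, 4512, 665, 1049 and 354 in neoplasia 1 to 5. Its scaled mean went from -2.37 ± 0.41 (SD, n = 3) to 0.82 ± 1.93 (SD, n = 5), which is 3.19 ± 0.99 (SE) or 9.10-fold higher, and its groups did not overlap. Probe A_55_P2168722 gave 96.9, 106 and 64.9 in wildtype and 60.2, 5388, 1209, 780 and 264 in neoplasia 1 to 5. It differed by 3.26 ± 1.16 (SE) or 9.59-fold, with means of -2.50 ± 0.29 (SD, n = 3) and 0.76 ± 2.28 (SD, n = 5), and here neoplasia 1 fell among the wildtype samples at -2.36. On all 3 probes neoplasia 2 was the highest and neoplasia 1 the lowest of the tumours, with neoplasia 5 next to lowest. The differences of the 3 probes lay within 0.21 of each other on the log2 scale. On single neoplasias the level of A_55_P2026340 minus that of A_55_P2168722 ran from -0.86 to 0.56. The probes read the same samples, so their agreement says nothing of the spread between tumours.

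The size of the Fmo5 difference rested in part on single tumours. For the brightest probe it was 4.10 without neoplasia 1 and 2.79 without neoplasia 2. Within slide row 2, where neoplasia 5 stood against the 3 wildtype samples, the probes gave 2.55, 2.35 and 2.06, and neoplasia 1 to 4 against wildtype gave 3.61, 3.40 and 3.56 in the same order of probes. Scaling changed the size as well. The brightest probe gave 2.81 with spike-in scaling, and the authors' row, which averages the Fmo5 probes, gave 2.90. The difference was positive for each probe whichever array was left out and under each scaling.

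The DNA before the annotated starts of Fmo5 and Fmo2 is shown because these genes, detected on all 8 arrays, differed in their pattern between the groups. RefSeq sequence of GRCm38.p6 was available for 3 of the 4 genes, in 4 windows of the 250 bases before a start. In the lines below, capitals mark letters that match a searched motif on either strand. The Fmo5 window is chr3:97628769-97629018 on the plus strand, and the Fmo2 window, the more downstream of a pair, is chr1:162898494-162898743 on the minus strand.
Fmo5: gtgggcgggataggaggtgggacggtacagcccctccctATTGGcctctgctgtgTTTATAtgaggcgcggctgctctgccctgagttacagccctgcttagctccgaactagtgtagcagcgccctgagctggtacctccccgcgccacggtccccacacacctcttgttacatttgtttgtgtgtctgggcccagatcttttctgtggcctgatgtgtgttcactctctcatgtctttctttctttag
Fmo2: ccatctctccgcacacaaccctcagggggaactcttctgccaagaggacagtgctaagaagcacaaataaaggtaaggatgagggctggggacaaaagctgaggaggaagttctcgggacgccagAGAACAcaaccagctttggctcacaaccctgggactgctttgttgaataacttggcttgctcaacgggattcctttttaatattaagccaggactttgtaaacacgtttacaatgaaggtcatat
The Fmo5 window held ATTGG, the reverse complement of the CCAAT box, and TTTATA, the reverse complement of the TATA box TATAAA. These begin 211 and 195 bases before the start, and 33.85% and 12.4% of all 32851 promoter windows of this length hold the respective motif on either strand. The Fmo2 window held AGAACA, the hexamer that progesterone and glucocorticoid receptors bind as repeats, 125 bases before its start, a motif found in 16.1% of all windows. The other Fmo2 window, which is not shown, held no match to AGAACA or to any other searched motif. The Fmo5 window held neither AGAACA nor TGTTCT. Neither window shown held the AHR core GCGTG, the antioxidant response element TGACNNNGC or the HNF4 element AAAGTCCA on either strand, which occur in 28.2%, 10.2% and 1.01% of windows. No match in the windows shown overlapped another, and the matches are a description of letters only. G and C made up 56% of the Fmo5 window and 47.6% of the Fmo2 window, against a median of 52.4%.

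Fmo1 separated the neoplasias from each other more than from the wildtype ovary. The brighter probe, A_52_P508991, gave signals of 286, 542 and 305 on wildtype 1 to 3. On neoplasia 1 to 5 it gave 3.31, 62.0, 4.21, 11.4 and 408. Neoplasia 1, 3 and 4 were not well above background, neoplasia 2 was below every wildtype sample, and neoplasia 5, at 0.18 after scaling, was above the highest wildtype sample at 0.07. Wildtype averaged -0.45 ± 0.47 (SD, n = 3) and neoplasia -4.09 ± 2.83 (SD, n = 5). The contrast was -3.64 ± 1.44 (SE), or 12.5-fold lower, and the groups overlapped. This value rests on signals below background. With those signals raised to the lowest signal well above background on their array, a setting chosen after the data were seen, the difference was -2.99.

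The dimmer probe, A_55_P2153783, showed the same order of groups. It gave 51.4, 73.6 and 52.9 in wildtype and 5.49, 10.8, 2.07, 7.001 and 123 in neoplasia 1 to 5. Only neoplasia 5 was well above background among the tumours, and it was brighter than each wildtype sample. The means were -3.08 ± 0.26 (SD, n = 3) and -5.14 ± 2.18 (SD, n = 5), a difference of -2.06 ± 1.11 (SE), and -1.17 with signals below background raised as above. With normexp, which compresses dim signals, it was -0.22.

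The direction for Fmo1 depended on which tumours were compared. Neoplasia 1 to 4 minus wildtype was -4.71 at the brighter and -2.96 at the dimmer probe. Neoplasia 5, the only tumour in the slide row of the wildtype samples, was higher by 0.64 and 1.54. Slide row as a block gives the same 0.64 and 1.54, because the other row holds no wildtype sample, so that slide row and tumour cannot be told apart for neoplasia 1 to 4.

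**Figure D2:**
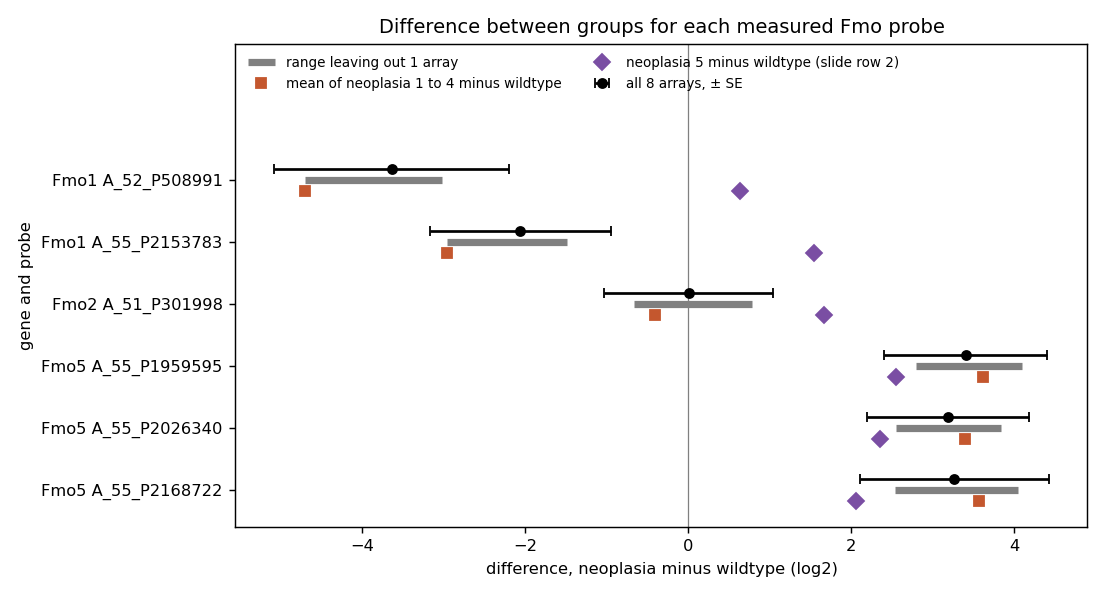
Difference in log2 level between neoplasia and wildtype (horizontal axis) for the 6 measured Fmo probes (vertical axis), with black points and SE bars for all 8 arrays, grey bars for the range when 1 array is left out, orange squares for neoplasia 1 to 4 and purple diamonds for neoplasia 5. The 3 Fmo5 probes stay between 2.06 and 4.10, whereas the Fmo1 probes lie below 0 for neoplasia 1 to 4 and above 0 for neoplasia 5.

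Fmo2 varied widely inside both groups around nearly equal means. Its probe A_51_P301998 gave 703, 1524 and 232 in wildtype and 45.7, 686, 903, 471 and 1447 in neoplasia 1 to 5. Neoplasia 1 was the lowest of all samples and neoplasia 5, after scaling, the highest, with the other tumours inside the wildtype range. The scaled means were 0.34 ± 1.28 (SD, n = 3) and 0.35 ± 1.84 (SD, n = 5), a difference of 0.0021 ± 1.04 (SE). The sign of so small a difference followed single samples. It was 0.78 without neoplasia 1, -0.67 without wildtype 3, -0.47 in the authors' values and 1.67 within slide row 2.

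Fmo4 was at background in every sample. Probe A_52_P471282 gave 3.49, 11.97 and 2.94 in wildtype and 2.83, 4.69, 6.88, 3.51 and 7.45 in neoplasia 1 to 5, and it was well above background on 0 of 8 arrays. The lowest signals called well above background on these arrays were 9.82 to 17.4, so a level below that range cannot be seen here, and no fold is given. Of other family genes, Fmo6 and Fmo9 were likewise well above background on 0 of 8 arrays, with signals of 2.44 to 6.17 and of 2.60 to 4.10.

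Fmo4, Fmo1 and Fmo2 follow one another on chromosome 1 with no other protein-coding gene between them in the RefSeq annotation, yet Fmo1 and Fmo2 had different patterns across the tumours and Fmo4 was not detected. Fmo5 stands alone on chromosome 3. Neighbours were chosen by position, outside the rule for named genes. Beside the chromosome 1 genes, Myoc, which encodes the secreted protein myocilin, fell by 4.401 ± 1.21 (SE) on the log2 scale (limma adjusted p = 0.0296), a call lost when any array but neoplasia 5 was left out (largest adjusted p = 0.0991). Prrc2c, Prrx1 and Gorab, the nearest other measured genes outside the family, differed by 0.24, -1.36 and 0.47 and did not pass (limma adjusted p = 0.310, 0.294 and 0.114). Beside Fmo5, the chromatin remodeller gene Chd1l and Prkab2, a subunit of AMP-activated kinase, differed by 0.27 and 0.64 and did not pass (limma adjusted p = 0.628 and 0.0923). The other measured neighbours there, Olfr1402 and Pde4dip, differed by 0.22 and 0.41 and did not pass (limma adjusted p = 0.530 and 0.225).

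Genes with the most similar profiles were sought among 14985 named genes by the root mean square difference between mean-centred log2 levels over the 8 arrays. For Fmo1 these were Hsd17b2, which inactivates estradiol and testosterone, and Srd5a2, a steroid 5-alpha reductase, each at 0.70 where Fmo1 itself varied by 2.68 about its mean. Their own differences between groups were -4.05 and -3.29. The Fmo1 probe was not well above background on neoplasia 1, 3 and 4, so this ranking rests in part on background signal. For Fmo2 they were Tppp, a tubulin-binding protein gene, at 0.49 and Prune2 at 0.56, against 1.45 for Fmo2 about its mean. For Fmo5 they were Plcxd2 and Them7, each at 0.62, against 2.16 for Fmo5. These are descriptions over few arrays, and between 20 and 113 named genes lay within 1 log2 unit of each member.

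The labelled tissue was checked against marker genes, given as the summed scaled signal of a list, in units of the array's 75th percentile. Counts of markers that rose or fell come from limma over all 29485 features, of which 15.4% were called higher and 13.6% lower. All 11 oocyte genes fell, with sums of 32.9 to 42.7 in wildtype and 0.329 to 0.606 in neoplasia, and 7 of them, among them Zp1, Zp2 and Padi6, were not well above background on any neoplasia array. In the granulosa list 6 of 8 genes fell, and in the luteal list 8 of 8, with luteal sums of 429 to 783 and 52.2 to 147. Lhcgr and Ptgfr of the luteal list and Fshr, Amh and Cyp19a1 of the granulosa list were not well above background on any neoplasia array. The granulosa genes Foxl2 and Nr5a2 differed by 0.43 and -3.02 and did not pass (limma adjusted p = 0.126 and 0.172). Foxl2 was higher in every neoplasia than in any wildtype sample. Inhba of the same list, which fell, differed from wildtype by -7.97 in neoplasia 1 to 4 and by -0.36 in neoplasia 5. The oocyte, granulosa and luteal sums were below the wildtype range in neoplasia 5 as in the other tumours, where Fmo1 in neoplasia 5 was above it.

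The summed signals of the stroma, smooth muscle and fat markers were, as Fmo1 was, lower in each of neoplasia 1 to 4 than in any wildtype sample. In neoplasia 5 these sums were within or above the wildtype range. The fibroblast and stroma sums were 259 to 339 in wildtype, 32.0 to 130 in neoplasia 1 to 4 and 555 in neoplasia 5, and 2 of 10 genes fell, Tcf21 and Nr2f2, while 0 rose. The smooth muscle sums were 125 to 386, 23.0 to 84.8 and 227. There 1 of 7 genes fell, Cnn1, a share near the 13.6% of all features called lower, while 0 rose. The adipocyte sums were 1.35 to 61.9, 0.120 to 0.917 and 66.9, and 2 of 8 genes fell, Plin1 and Cidea, while 0 rose. In these 3 lists each gene was well above background on at least 1 array of each group. Single genes did not all follow the sums. In neoplasia 5 the called genes Tcf21, Nr2f2, Cnn1, Plin1 and Cidea differed from the wildtype mean by -1.49, -0.82, -2.07, -1.23 and -4.03. Col1a1 and Smtn, named after their values were seen, differed by 2.07 and 0.62 there. The order inside these sets of samples differed from that of Fmo1. Neoplasia 2 was the highest of neoplasia 1 to 4 for the brighter Fmo1 probe and the lowest of all samples for smooth muscle, and wildtype 3 had the lowest wildtype sum in each list but not the lowest Fmo1. Within wildtype, the smooth muscle and adipocyte sums were highest in wildtype 2 and lowest in wildtype 3, as was Fmo2. The part of these cell types in the Fmo1 and Fmo2 values was not tested.

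Epithelial, hepatocyte, macrophage and endothelial markers were compared with the order seen for Fmo5. The epithelium sums were 12.5 to 70.6 in wildtype and 179 to 767 in neoplasia, with Krt8 and Krt18, keratins of simple epithelia, higher by 4.001 and 3.52 and Epcam and Cdh1, adhesion genes, lower, 2 of 8 genes in each direction. That sum was highest in neoplasia 1, where Fmo5 was lowest. The hepatocyte sums were 1.68 to 5.07 and 1.36 to 139, highest in neoplasia 2 and lowest in neoplasia 4, with Apoa1 higher and Tat lower among 6 genes and Alb and Cps1 not well above background on any wildtype array. The macrophage sums were 30.6 to 36.5 and 90.9 to 179, highest in neoplasia 2, and 7 of 7 genes rose. Neoplasia 1, where Fmo5 was lowest among the tumours, had the next to highest hepatocyte and macrophage sums, 90.4 and 122. The endothelium sums were 13.1 to 15.9 and 22.8 to 50.6, and 3 of 8 genes rose. Among the tumours the endothelium sum was lowest in neoplasia 2, where Fmo5 was highest, and highest in neoplasia 5. The part of these cell types in the Fmo5 values was not tested.

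**Figure D3:**
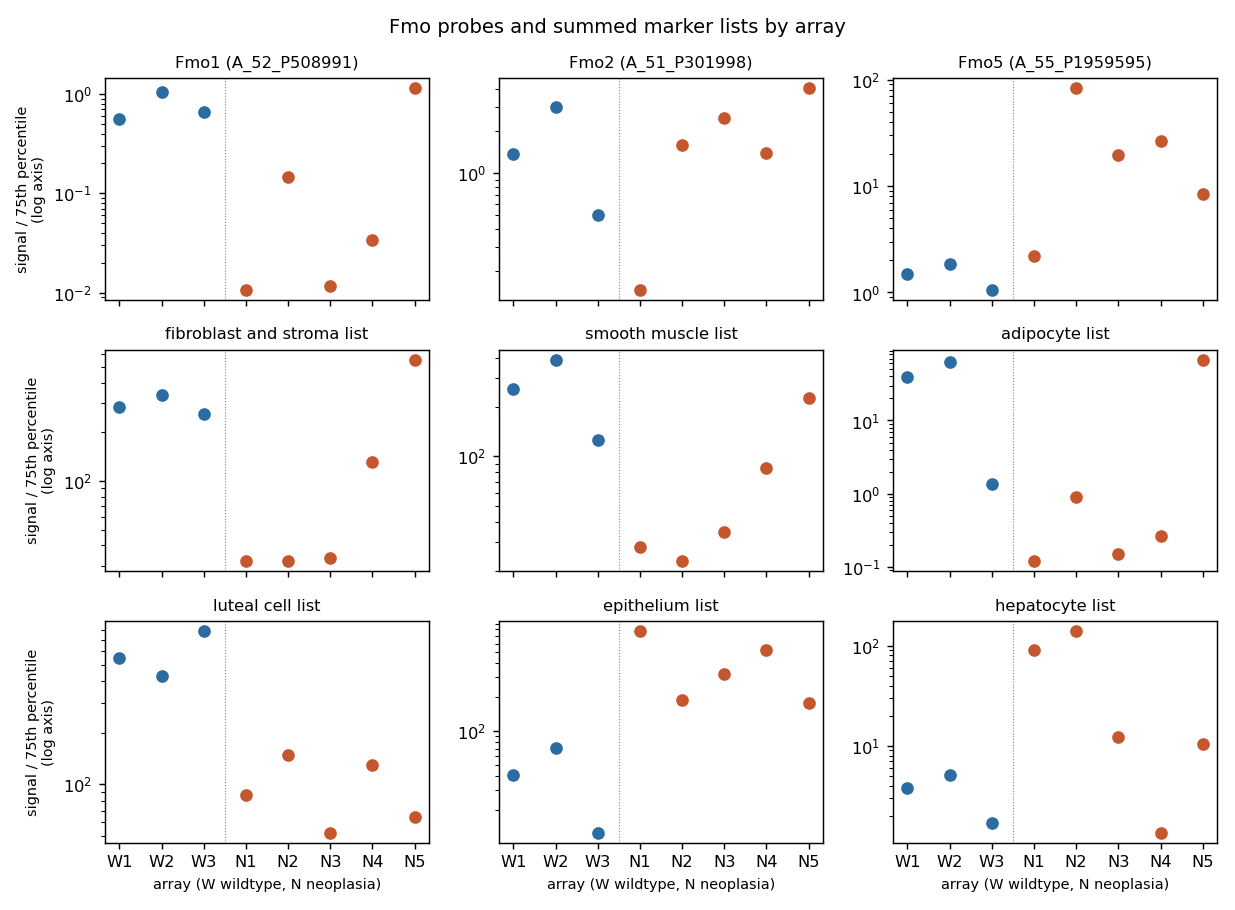
Scaled signal on each array (horizontal axis, W wildtype and N neoplasia) for the brightest probe of Fmo1, Fmo2 and Fmo5 and the summed scaled signal of 6 marker lists, on a log axis in units of the array's 75th percentile. Fmo1 and the stroma, smooth muscle and adipocyte sums are lower in neoplasia 1 to 4 than in any wildtype sample and within or above the wildtype range in neoplasia 5, with neoplasia 2 and wildtype 3 placed differently among them, while the luteal sum is low in every neoplasia.

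Genes that supply cofactors to these enzymes were taken next. Counts below come from limma over all 29485 features, of which 15.4% were called higher and 13.6% lower. In the FAD supply list, which covers riboflavin uptake and FAD synthesis and transport, 2 of 5 genes rose and 0 fell, with a median of 0.22 against 0.11 over all features. The riboflavin transporter gene Slc52a2 rose by 1.18 ± 0.34 (SE) (limma adjusted p = 0.0354) and Slc25a32, a mitochondrial carrier of folate and FAD, by 0.97 ± 0.26 (SE) (limma adjusted p = 0.0256). Both calls were lost without wildtype 1, 2 or 3, and that of Slc52a2 also without neoplasia 1, 2, 3 or 4 (largest adjusted p = 0.120). Both calls were also lost with spike-in scaling (adjusted p = 0.566 and 0.7104) and in the authors' values (adjusted p = 0.169 and 0.181). Rfk and Flad1, which make FMN and FAD, differed by -0.22 and -0.28 and did not pass.

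NADPH supply and microsomal electron transfer gave similar counts. Of 8 NADPH genes 2 rose and 0 fell, with a median of 0.33. H6pd, the hexose-6-phosphate dehydrogenase that makes NADPH inside the endoplasmic reticulum, rose by 2.14 ± 0.28 (SE) (limma adjusted p = 0.00144), was 2.01 higher in neoplasia 5 alone and kept its call whichever array was left out (largest adjusted p = 0.0113), though not with spike-in scaling (limma adjusted p = 0.0748). Aldh1l1, a folate dehydrogenase, rose by 1.62 ± 0.53 (SE), a call lost when any array but neoplasia 5 was left out (largest adjusted p = 0.156) and with quantile (adjusted p = 0.0774) or spike-in scaling (adjusted p = 0.350). The count was 4 without neoplasia 5. It split into 1 higher and 1 lower with quantile normalization, where Me1, malic enzyme, was the lower gene (-1.40, limma adjusted p = 0.0346), and in the authors' values, where Pgls of the pentose phosphate pathway was (-0.61, limma adjusted p = 0.0422). Of 6 electron transfer genes 2 rose and 0 fell, with a median of 0.69. Cytochrome b5, Cyb5a, and its reductase Cyb5r3 rose by 1.32 ± 0.31 and 1.35 ± 0.38 (SE), and 0 of the 6 were called without wildtype 1 or 2. Of the arrays left out in turn, those 2 ended the call of Cyb5a (largest adjusted p = 0.0767), and wildtype 3 and neoplasia 1 also ended that of Cyb5r3 (largest adjusted p = 0.113). Both calls were lost with quantile normalization, where Cyb5a was 0.50 (adjusted p = 0.165 and 0.0638), with spike-in scaling (0.450 and 0.453) and in the authors' values (0.0590 and 0.0892). Por, the P450 reductase, differed by 0.83 and did not pass (limma adjusted p = 0.0566).

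Of 21 other phase I enzymes outside the P450 family 7 fell and 0 rose, with a median of -0.07. Maob and Aldh1a1, a monoamine oxidase and a retinal dehydrogenase named after their values were seen, differed by 1.32 and 1.08 and did not pass, and Aldh1a1 passed without neoplasia 1 or 5 (limma adjusted p = 0.0453 and 0.0306). Adh1, an alcohol dehydrogenase that also oxidises retinol, fell by 5.68 ± 0.71 (SE) (limma adjusted p = 0.00129). Ephx2, the soluble epoxide hydrolase, fell by 4.59 ± 0.58 (SE) (limma adjusted p = 0.00133). Aox3, an aldehyde oxidase well above background on 2 of 5 neoplasias, fell by 4.396 ± 0.87 (SE) (limma adjusted p = 0.00911). Adh7, not well above background on any neoplasia, was at least 2.73-fold lower (limma adjusted p = 7.07e-05). These 4 kept their call whichever array was left out (largest adjusted p = 0.0442). The count was 4 without wildtype 1 or 2. In neoplasia 5 alone Adh1 and Ephx2 differed from wildtype by -4.75 and -3.72, where Fmo1 differed by 0.64.

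Among genes of taurine synthesis and sulfoxide handling, 3 of 11 rose and 2 fell, with a median of 0.35. Suox, sulfite oxidase, rose by 3.34 ± 0.56 (SE) (limma adjusted p = 0.00461) whichever array was left out (largest adjusted p = 0.0264). Cdo1, which starts taurine synthesis from cysteine, rose by 2.58 ± 0.80 (SE) (limma adjusted p = 0.0421), a call lost without any wildtype sample or without neoplasia 1, 2 or 3 (largest adjusted p = 0.134). Csad and Ado, the other steps to hypotaurine, the substrate of FMO1, differed by -0.58 and -0.27 and did not pass. The methionine sulfoxide reductases split, with differences of 0.99 ± 0.23 (SE) for Msrb1, -1.28 ± 0.26 for Msrb2 and -0.95 ± 0.25 for Msra, and each of these lost its call without at least 1 wildtype sample (largest adjusted p = 0.0852). Cdo1 and Msrb1 did not pass with spike-in scaling (adjusted p = 0.106 and 0.690) or in the authors' values (adjusted p = 0.0910 and 0.207). The count over the list was 2 without wildtype 1, 2 or 3.

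Xenobiotic sensors and targets of the aryl hydrocarbon receptor gave 2 rises and 1 fall among 9 genes, with a median of -0.16. Hnf4a, a liver and gut transcription factor, rose by 4.12 ± 0.86 (SE) (limma adjusted p = 0.0111) and kept its call whichever array was left out (largest adjusted p = 0.0461). It was above background on 2 of 3 wildtype arrays, so that this value rests in part on a signal below background. Nfe2l2, the antioxidant response factor NRF2, rose by 0.61 ± 0.19 (SE), a call lost when any array but neoplasia 5 was left out (largest adjusted p = 0.169) and with spike-in scaling, where it was 0.02 (adjusted p = 0.990). Ahrr, a repressor of the aryl hydrocarbon receptor, above background on 2 of 5 neoplasias, fell by 2.40 ± 0.53 (SE). That call was lost when wildtype 1 or 2 was left out (largest adjusted p = 0.0571). The count of called genes was then 1. Ahr itself differed by -0.09 and did not pass (limma adjusted p = 0.858). With slide row as a block, the calls of H6pd, Adh7, Msrb2 and Ahrr were kept and the other calls in these 6 lists were not.

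**Figure D4:**
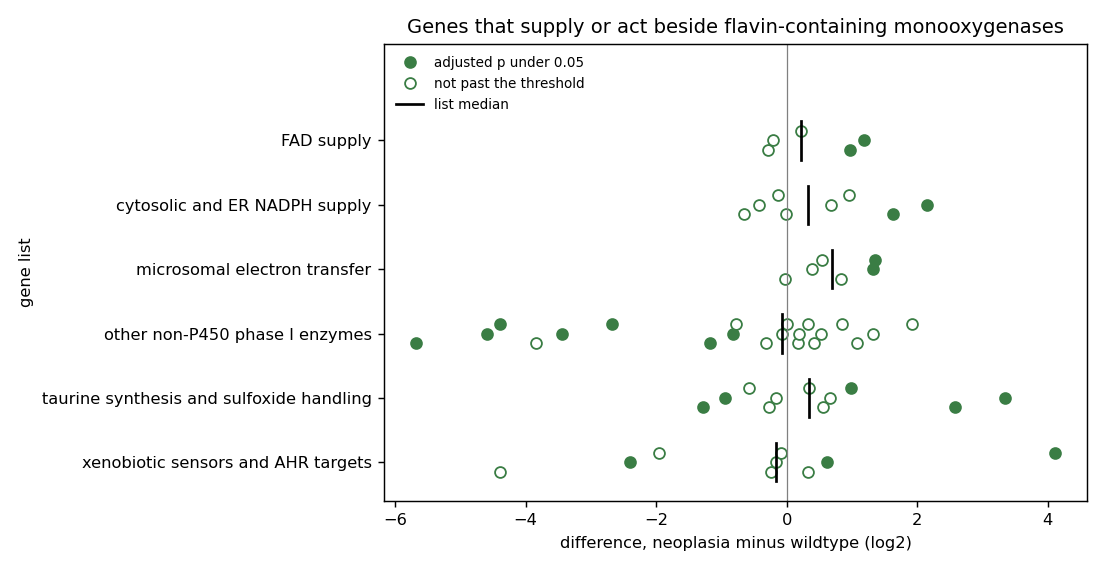
Difference in log2 level between neoplasia and wildtype (horizontal axis) for each measured gene of 6 lists (vertical axis), with filled points for an adjusted p under 0.05, open points for genes that did not pass and a bar for the list median. All 7 calls among other phase I enzymes lie below 0, and the calls in the FAD, NADPH and electron transfer lists lie above 0.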

How the data were processed

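RNA of 3 wildtype ovaries and 5 ovarian neoplasias had been labelled with Cy3 and hybridised to 1-colour Agilent arrays. The deposited scanner files hold spot intensity, background-subtracted and spatially detrended by Agilent Feature Extraction 11.0.1.1 and not normalized between arrays, per the file headers, which name mm9 for the grid. The deposited value table holds log2 values that matched log2 of the mean processed intensity per feature name within 0.001 in all 37932 rows. Partek is named, with no role, in the submitters' processing notes.

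Spots flagged as outliers and control spots were dropped, spots of a probe were averaged on the log2 scale, and the array's 75th percentile was subtracted. A probe entered the fit when 3 or more arrays had it well above background, and the fit used limma 3.58.1 in R 4.3.3 (lmFit, eBayes, no covariates), two-sided, with Benjamini-Hochberg adjustment over the whole table at 0.05. Fmo probes were fitted among all probes. For gene lists the probe with the highest mean stood for a gene, and probes without a symbol stood for themselves. RefSeq names (GRCm38.p6) matched the accessions of 26582 of 55681 probes (47.7%). Where no array of a group was well above background, a bound is given, from the bright group's mean and, per dim array, the higher of the probe's value and the lowest signal well above background. The number of arrays limits the precision. The fit was also run on simulated data with the same spread in both groups. The groups here differ in spread, so that run does not cover this feature, and nothing is drawn from it.

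The members and lists were chosen with earlier results of these data known. The naming rule covered the Fmo genes, up to 4 called members of each list by size with others where counts are small, up to 3 called markers per list, and the nearest 2 profiles. Of the list of other family genes 1 result is not reported here, and that list gives no count. Alternatives were normexp (offset 50, on median signals), quantile and spike-in scaling, the authors' values, other filters, the mean over probes, a threshold of 0.01, blocks for replicate number or for slide row, row 2 by itself, leaving out each array, and a floor for signals below background, added later.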

Additional observations from a re-analysis of the deposited data

Results flagged for a closer look

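Among the 5 neoplasias, the gap between the farthest sample and its neighbour was set against the whole range, on the linear and on the log2 scale. On the linear scale neoplasia 5 stood above the others, with a gap of 0.881 and 0.942 of the range for the brighter and the dimmer Fmo1 probe, 0.988 for the summed signal of the adipocyte list and 0.813 for the fibroblast and stroma list. Neoplasia 2 stood above the others at the Fmo5 probes A_55_P2026340 and A_55_P2168722, with 0.724 and 0.747. These are above 0.71, Dixon's critical value for 5 samples. Chance passes that value in about 1 of 20 groups of normally distributed values, and normality was not tested for these linear signals. Other probes, lists and array measures were screened as well, with no correction for their number. Nothing is therefore concluded from these passes. On the log2 scale none of these items passed 0.71. The ratios there were 0.442 and 0.637 for the Fmo1 probes, 0.343 and 0.319 for those Fmo5 probes, 0.679 for the adipocyte list and 0.509 for the fibroblast and stroma list. Fmo2 gave 0.679 on the log2 scale, where neoplasia 1 stood lowest.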

How the results depend on the processing

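The Fmo5 and Fmo2 differences moved by less than the residual SD between replicates under every alternative run. That measure is wide, since the neoplasias alone had an SD of 1.84 for Fmo2 and of 2.28 for Fmo5 probe A_55_P2168722. With slide row as a block, Fmo2 went from 0.0021 to 1.67 and that Fmo5 probe from 3.26 to 2.06. The brighter Fmo1 probe moved to 0.64 with slide row as a block and within slide row 2 alone, and the dimmer one to 1.54 in both and to -0.22 with normexp; leaving out 1 array gave -4.71 to -3.03 and -2.96 to -1.48. The brighter probe gave -1.44 with normexp, -4.23 with spike-in scaling and -4.80 with the replicate block, and the dimmer one -2.65 with spike-in scaling, -3.11 with the replicate block and -3.67 in the authors' row, which averages both probes. Neither Fmo1 probe was above background on all 8 arrays, so that filter gives no value, and the authors' table has 1 row per accession. Replicate numbers did not pair the samples (correlations of -0.05, -0.03 and -0.01 over features), and the replicate block gave 5371 calls in place of 8549. Calls numbered 5689 with spike-in scaling, 1817 with slide row as a block, 2925 at 0.01 and 3215 to 11156 without 1 array. With spike-in scaling 0 FAD, 0 NADPH, 0 electron transfer and 3 taurine genes were called. In the authors' values these were 0 FAD, 0 electron transfer and 1 sensor gene. Quantile normalization left 0 electron transfer genes and normexp 4. Without the filter on dim probes 1 FAD and 1 NADPH gene were called, and with the filter on all 8 arrays 4 electron transfer and 1 sensor gene. With the replicate block 1 FAD, 1 NADPH, 1 electron transfer and 3 taurine genes were called. With slide row as a block the counts were 0 FAD, 1 NADPH, 0 electron transfer, 1 other phase I, 1 taurine and 1 sensor gene, and within row 2 alone 0 FAD, 1 NADPH, 0 electron transfer and 1 sensor gene. At 0.01 they were 0 FAD, 1 NADPH, 0 electron transfer, 4 other phase I, 1 taurine and 0 sensor genes. Leaving out 1 array gave 0 to 2 FAD, 1 to 4 NADPH, 0 to 3 electron transfer, 4 to 8 other phase I, 2 to 5 taurine and 1 to 3 sensor genes. The cause of these moves was not tested. The alternatives planned for the list of other family genes were not run. Signals near background limit Fmo1 and Fmo4.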
